A study of Mus musculus with 2 samples.

Results

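The matrix metalloproteinases are zinc-dependent enzymes, secreted or held at the cell membrane, that cut collagens, proteoglycans and other proteins outside the cell. Most are made as inactive proenzymes, are switched on by cleavage, often by plasmin, furin or another metalloproteinase, and are blocked by the tissue inhibitors of metalloproteinases (TIMPs). In skeletal tissue, MMP13 is the main fibrillar collagenase of osteoblasts and hypertrophic chondrocytes, MMP9 is a gelatinase of osteoclasts and neutrophils, and MMP3 is a stromelysin of synovial and other connective tissue cells that also activates other proenzymes. Here 10 members of the family, chosen by gene symbol, were followed among the 33696 genes listed in both count matrices: *Mmp2*, *Mmp3*, *Mmp8*, *Mmp9*, *Mmp10*, *Mmp11*, *Mmp12*, *Mmp13*, *Mmp14* and *Mmp19*. All 10 symbols were present, each on a single row.

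The cells came from amputated mouse digits. In neonatal ICR mice the middle phalanx (P2) of hindlimb digits 2 and 4 was amputated at postnatal day 3, a microcarrier bead was implanted at postnatal day 7, and single cells were prepared 24 hours later. One library came from digits given a bead soaked in FGF8 (500 ng/µl) and one from digits given a bead soaked in bovine serum albumin (BSA, 0.1%), each pooling 20 digits taken from 5 mice of both sexes, with the epidermis removed before enzymatic digestion. No genotype or transgene separated the groups, digits were pooled without selecting those that would go on to form a joint, and there was 1 library per condition. Differences between the libraries therefore have no replicate check and no test, and every interval printed here is an exact 95% interval that covers counting error only.

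Of the members, 5 (*Mmp3*, *Mmp8*, *Mmp10*, *Mmp12* and *Mmp13*) lie within a stretch of 427074 bases on chromosome 9 that holds 10 Mmp genes (GRCm39, GENCODE annotation), from *Mmp13* at chr9:7272514-7283331 to *Mmp7* at chr9:7692091-7699587. *Mmp3* (ENSMUSG00000043613) spans chr9:7445822-7455975 and *Mmp10* (ENSMUSG00000047562) spans chr9:7502353-7510241, both on the plus strand. The other members are on chromosomes 2 (*Mmp9*), 8 (*Mmp2*), 10 (*Mmp11* and *Mmp19*) and 14 (*Mmp14*). Collagenase and stromelysin promoters are textbook targets of the transcription factor AP-1, so the 250 bases before the annotated start of each member's principal transcript were searched for the AP-1 sequence TGANTCA, on both strands, which for this palindromic motif are the same. It was found in 6 of 10 members (*Mmp3*, *Mmp9*, *Mmp10*, *Mmp12*, *Mmp13* and *Mmp19*) and in 6.17% of 21431 protein-coding promoters of the same length. The last 130 bases before the start are printed for the 4 members on which the comparisons turn and for *Mmp2*, which has no match in its window; capitals mark the AP-1 match, all are GRCm39 and on the plus strand.
Mmp3, chr9:7445692-7445821: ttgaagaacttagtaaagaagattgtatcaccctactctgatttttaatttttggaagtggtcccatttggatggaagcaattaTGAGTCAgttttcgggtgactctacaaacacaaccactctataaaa
Mmp10, chr9:7502223-7502352: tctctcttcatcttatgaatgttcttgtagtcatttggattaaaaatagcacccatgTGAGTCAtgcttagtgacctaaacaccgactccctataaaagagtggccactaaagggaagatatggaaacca
Mmp13, chr9:7272384-7272513: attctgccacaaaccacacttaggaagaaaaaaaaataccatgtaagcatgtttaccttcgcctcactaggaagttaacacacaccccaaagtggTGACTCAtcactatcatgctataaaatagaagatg
Mmp9, chr2:164790009-164790138: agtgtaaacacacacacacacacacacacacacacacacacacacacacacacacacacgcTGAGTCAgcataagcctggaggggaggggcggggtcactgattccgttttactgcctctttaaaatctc
Mmp2, chr8:93553772-93553901: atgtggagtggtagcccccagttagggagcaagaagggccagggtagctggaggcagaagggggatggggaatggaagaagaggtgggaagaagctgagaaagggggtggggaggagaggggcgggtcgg
The match lay 40 bases before the start in *Mmp3*, 67 in *Mmp10*, 29 in *Mmp13* and 63 in *Mmp9*. *Mmp3*, *Mmp10*, *Mmp13* and *Mmp8* also had the TATA box letters TATAAA, on either strand, within the 250 bases (11.9% of all promoters had them). The Ets letters AGGAAG were found in *Mmp3*, *Mmp8*, *Mmp13* and *Mmp14* (28.8% of all promoters), and the Runx letters ACCACA in *Mmp9* and *Mmp13* (13.0% of all promoters). A match describes the letters only and is not evidence of binding. The last 100 bases of the window lay in a RefSeq promoter of the same symbol for 6 of the 10 members, so the other windows rest on the GENCODE start alone.

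After the cell filters, 6715 of 7249 FGF8 barcodes and 3252 of 3703 BSA barcodes remained, with a median of 12251 and 15377 UMIs (unique molecular identifiers, each counting 1 captured transcript). Of the cells whose sex could be called from sex-linked transcripts, 24.6% were female with FGF8 and 79.3% with BSA, so sex and treatment were unequally mixed. Values within each called sex are given for part of the ratios only. The libraries shared 4 barcodes after the filters. Levels are given as CPM, the UMIs of a gene per 1000000 UMIs of all genes in the same cells. At the coarse clustering, 3316 FGF8 and 1713 BSA cells formed the fibroblast-like cluster, in which all 8 fibroblast markers were detected. At the finer clustering this cluster separated into a tenocyte-like cluster (*Fmod* and *Comp* among its leading genes; 430 FGF8 and 333 BSA cells) and clusters known here by their 2 leading genes, the largest led by *Prg4*, which encodes the joint lubricant lubricin, and *Il1rl1* (1138 FGF8 and 271 BSA cells). Mmp and Timp genes were left out of the clustering, so no cluster was built on them. Chondrocyte-like cells numbered 143 and 66, with all 10 chondrocyte markers detected, and macrophage-like cells 734 and 378, with all 8 macrophage markers detected. No cluster took the name of osteoblasts or osteoclasts. Osteoblast-lineage cells were therefore picked one by one, as cells outside the chondrocyte-like cluster with a UMI of at least 4 of 9 osteoblast-lineage markers (81 FGF8 and 38 BSA cells), a cut set after the data were seen. A further 85 FGF8 and 32 BSA cells had exactly 3 of the markers and 36 and 17 of those picked had exactly 4, so the group is a range along a score rather than a cell type.

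Each member had its own place among the cells, and that place was largely shared by the libraries. *Mmp2*, the gelatinase of mesenchymal cells, and *Mmp14*, the membrane enzyme that activates proMMP2, were carried by nearly all connective tissue cells: 87.5% of fibroblast-like cells with FGF8 and 90.5% with BSA had a *Mmp2* UMI, and 91.2% and 91.8% had a *Mmp14* UMI. Among the clusters, *Mmp2* was highest in the *Chodl* *Sema3a* cluster (585 CPM in FGF8 and 653 in BSA) and *Mmp14* in tenocyte-like cells (431 CPM and 563). The picked osteoblast-marker cells had *Mmp14* at 423 CPM in FGF8 and 676 in BSA. *Mmp11*, stromelysin-3, was highest in the *Coch* *Nrg1* cluster (129.8 CPM in FGF8 and 89.9 in BSA), followed by the *Chodl* *Sema3a* cluster (101 and 70.7). *Mmp19* was highest in macrophage-like cells (76.6 CPM and 54.7) and next in the *Agtr2* *Lpl* cluster of connective tissue (45.3 and 47.7).

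The remaining members were found mainly in few or specialised cells. *Mmp8*, the neutrophil collagenase, was the least counted member, with 89 UMIs with FGF8 and 46 with BSA, of which 62.9% and 63.0% lay in neutrophil-like cells. *Mmp9* was highest in neutrophil-like cells (294 CPM in FGF8 and 232 in BSA) and next in macrophage-like cells (70.7 and 94.3). *Mmp13* was highest, among all sets of cells compared, in the osteoblast-marker cells, at 3074 CPM in FGF8 and 2564 CPM in BSA. These 81 and 38 cells held 57.8% and 64.6% of all *Mmp13* UMIs of their library. *Mmp10*, stromelysin-2, was highest in chondrocyte-like cells in both libraries (179.5 CPM in FGF8 and 17.7 in BSA). The BSA value was 29 UMIs in 1 of 66 cells, the only *Mmp10* of that library, so it cannot show a shared place. *Mmp3* was highest in chondrocyte-like cells in the FGF8 library (1325 CPM, counting interval 1285 to 1365) and in the *Prg4* *Il1rl1* cluster in the BSA library (90.0 CPM). *Mmp12*, the macrophage elastase, was sparse throughout, with 113 UMIs with FGF8 and 152 with BSA.

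**Figure D1:**
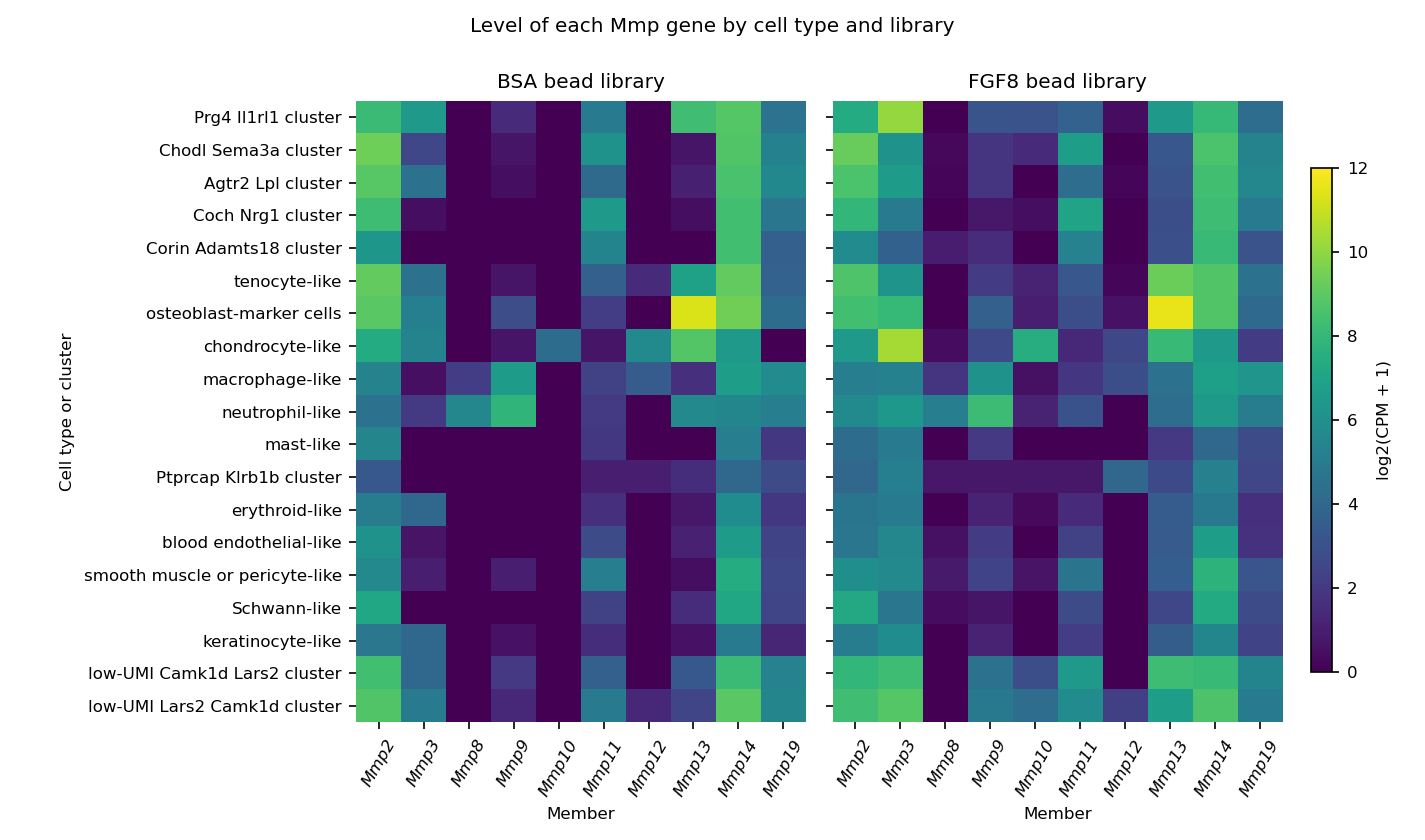
Level of each member as log2(CPM + 1), on a colour scale, in each cell type, cluster or set of picked cells (rows) of the BSA library (left) and the FGF8 library (right). *Mmp2* and *Mmp14* are present in every connective tissue row, *Mmp13* is highest in osteoblast-marker cells, *Mmp9* in neutrophil-like cells, and *Mmp3* is highest in chondrocyte-like cells (1325 CPM) and next in the *Prg4* *Il1rl1* cluster (1090 CPM) of the FGF8 library.

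In fibroblast-like cells *Mmp3*, *Mmp10* and *Mmp9* were higher in the FGF8 library, while the widely expressed *Mmp2* and *Mmp14* were lower by less than 2-fold. Of the 9 members with at least 10 UMIs, 3 were at least 2-fold higher in FGF8 (*Mmp3*, *Mmp9* and *Mmp10*), against 6.51% of the 20045 genes compared in the same cells, and 0 were at least 2-fold lower, against 5.12% of genes. The median log2 ratio (FGF8 over BSA) was -0.17 over the 9 members, with *Mmp10* at its lower bound, and -0.07 over all genes. *Mmp3* was at 643 CPM in FGF8 and 31.9 CPM in BSA, a log2 ratio of 4.33 (interval 4.25 to 4.42). It was 4.55 among female-called cells and 4.48 among male-called ones, 3.16 with each cell weighted equally and 2.94 with each cell thinned to 2000 UMIs. *Mmp9* had 413 UMIs (5.92 CPM) in FGF8 and 28 UMIs (0.788 CPM) in BSA, a log2 ratio of 2.91 (2.36 to 3.52), with 108 of the FGF8 UMIs in 1 cell. It was found in 3.56% of the FGF8 cells, and in 3.85% of smooth muscle or pericyte-like and 3.52% of blood endothelial-like cells of that library, so its share of cells did not stand above theirs. Neutrophil-like cells, in which *Mmp9* was highest, made up 7.95% of FGF8 and 4.86% of BSA cells, and their part in this ratio was not tested. *Mmp10* had 346 UMIs (4.96 CPM) in FGF8 and 0 in BSA. Against a floor of 3 UMIs this made it at least 58.7-fold higher (log2 5.88). The bound was lower where fewer cells or UMIs were counted, at log2 3.54 among male-called cells, 3.28 with cells named one by one from markers and 2.36 with cells thinned to 2000 UMIs.

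*Mmp2* and *Mmp14* were lower per UMI in the FGF8 library. *Mmp2* stood at 283 CPM in FGF8 and 469 in BSA (log2 ratio -0.73, -0.76 to -0.70), and *Mmp14* at 313 and 450.4 (-0.53, -0.55 to -0.50). Among female-called and male-called cells the ratio was -0.84 and -0.64 for *Mmp2*, and -0.72 and -0.32 for *Mmp14*. By cluster, *Mmp2* was at -0.79 in *Prg4* *Il1rl1*, -0.44 in tenocyte-like, -0.32 in *Coch* *Nrg1*, -0.29 in *Agtr2* *Lpl* and -0.16 in *Chodl* *Sema3a* cells. In the same order *Mmp14* was at -0.80, -0.39, -0.09 (-0.23 to 0.04), -0.19 and -0.15. The *Prg4* *Il1rl1* cluster gave 38482242 of 69750522 FGF8 UMIs and 8542519 of 35522409 BSA UMIs, so cluster size also enters the pooled ratios. Over all fibroblast-like cells *Mmp11* (31.0 and 38.3 CPM, log2 ratio -0.31) and *Mmp19* (25.5 and 28.6 CPM, -0.17) were nearer to equal. The *Mmp11* value pools clusters of opposite direction. Its log2 ratio was 0.52 in the *Chodl* *Sema3a* cluster and 0.53 in the *Coch* *Nrg1* cluster, but -1.27 in the *Prg4* *Il1rl1* cluster. *Mmp13*, at 136 CPM in FGF8 and 104 in BSA, gave a log2 ratio of 0.39 (0.33 to 0.44), which was 1.33 among female-called cells and 0.21 among male-called ones, and 1.85 under a stricter cell filter, and *Mmp12*, with 20 and 16 UMIs, one of -0.65 with an interval on both sides of 0 (-1.67 to 0.39). *Mmp8* had 4 UMIs in FGF8 and 0 in BSA, too few for a ratio.

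These sums were spread very differently over cells. In the FGF8 library the 33 fibroblast-like cells richest in a gene (1% of the cells) held 4.86% of *Mmp2* UMIs, 31.8% of *Mmp3*, 78.6% of *Mmp13*, 76.0% of *Mmp9* and 90.5% of *Mmp10*. In the BSA library the richest 17 cells held 4.52% of *Mmp2*, 65.4% of *Mmp3* and 95.6% of *Mmp13*. A single FGF8 cell held 1544 *Mmp3* UMIs among 25242 UMIs in all, and the richest BSA cell held 158. *Mmp10* came from 66 of 3316 FGF8 cells, and 83.3% of those also had a *Mmp3* UMI, against 44.5% of the cells without *Mmp10*. *Mmp13* was found in 34.8% of the cells with *Mmp10* and in 10.6% of the rest. Cells with many UMIs in all are more likely to show both genes of any pair.

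**Figure D2:**
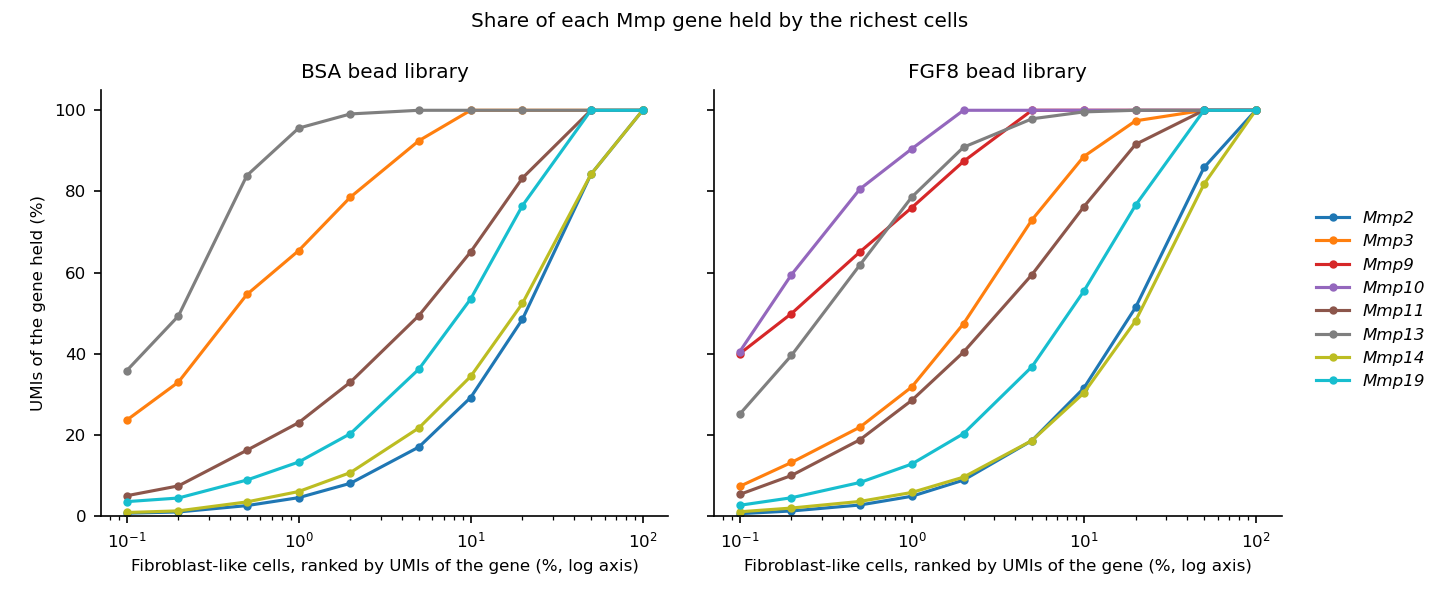
Share of each member's UMIs (vertical, %) held by the richest fibroblast-like cells, ranked for that gene (horizontal, % of cells, log axis), for members with at least 100 UMIs in the BSA (left) or FGF8 (right) library. The curves of *Mmp2* and *Mmp14* stay low until many cells are counted, whereas *Mmp13*, *Mmp10* and *Mmp9* are close to complete within a few percent of the cells.

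The share of cells with a UMI also differed for *Mmp3*. It was 45.3% of fibroblast-like cells with FGF8 and 9.92% with BSA. Thinning every cell to 2000 UMIs removed the difference in depth and left out 150 FGF8 and 86 BSA cells. The shares were then 20.2% (interval 18.9% to 21.7%) and 2.70% (1.97% to 3.61%). *Mmp3* UMIs also lay in droplets of other cell types. In the FGF8 library they were found in 18.1% of erythroid-like, 18.9% of neutrophil-like, 20.7% of Schwann-like, 23.1% of smooth muscle or pericyte-like, 25.2% of *Ptprcap* *Klrb1b*, 26.4% of keratinocyte-like, 26.8% of blood endothelial-like and 27.1% of macrophage-like cells, at 25.1 to 82.2 CPM. In the BSA library the same types had a share of 1.60% or less. The median UMI count was 6983 in the FGF8 erythroid-like cells and 18612 in the fibroblast-like cells, so these shares were also compared at equal depth. Thinned to 2000 UMIs, *Mmp3* was found in 6.68% of FGF8 erythroid-like, 15.2% of neutrophil-like and 3.81% of Schwann-like cells. The *Prg4* *Il1rl1* cluster (38.4%) and chondrocyte-like cells (40.3%) were above that range, whereas tenocyte-like cells (6.74%, interval 4.56% to 9.54%) were within it. Thinning takes more from deep cells, and unthinned, tenocyte-like cells had 1.53 *Mmp3* UMIs per FGF8 cell. Erythroid-like cells had 0.227, neutrophil-like 0.255 and Schwann-like 0.336, so the thinned share alone cannot tell whether tenocyte-like cells were at background. For *Mmp13* the thinned share was 4.01% (3.35% to 4.75%) of FGF8 fibroblast-like and 1.04% (0.340% to 2.42%) of erythroid-like cells. *Mmp10* had 1 UMI in 613 FGF8 erythroid-like cells.

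**Figure D3:**
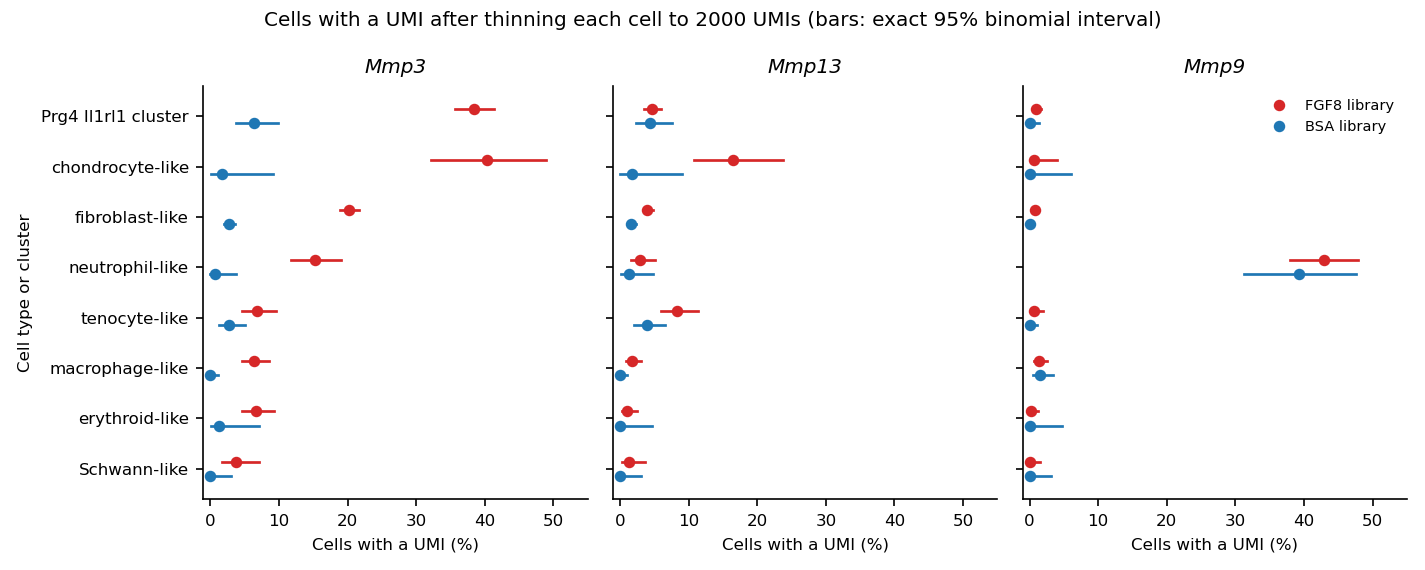
Share of cells (%) with at least 1 UMI of *Mmp3*, *Mmp13* or *Mmp9* after every cell was thinned to 2000 UMIs, by cell type or cluster, in the FGF8 (red) and BSA (blue) libraries, with exact 95% binomial intervals. *Mmp3* stands at 38.4% in the *Prg4* *Il1rl1* cluster and 40.3% in chondrocyte-like cells of the FGF8 library, and at 6.68% in erythroid-like cells of the same library.

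The *Prg4* *Il1rl1* cluster, which made up 1138 of 3316 fibroblast-like cells in FGF8 and 271 of 1713 in BSA, held 83.1% and 60.8% of all *Mmp3* UMIs of the libraries, so the pooled *Mmp3* ratio holds both a difference in level and one in cluster size. Among the connective tissue clusters the ratio of *Mmp3* had a single direction, and those of *Mmp11* and *Mmp13* had both. In the *Prg4* *Il1rl1* cluster *Mmp3* was at 1090 CPM in FGF8 and 90.0 in BSA (log2 ratio 3.60, 3.49 to 3.70). In tenocyte-like cells it was at 74.0 and 21.1 CPM (1.81, 1.57 to 2.06), in the *Chodl* *Sema3a* cluster at 70.5 and 4.87 (3.85, 3.40 to 4.34) and in the *Agtr2* *Lpl* cluster at 97.9 and 22.2 (2.14, 1.87 to 2.42). The FGF8 levels in tenocyte-like cells and the *Chodl* *Sema3a* cluster lay within the 25.1 to 82.2 CPM of the other cell types listed above. Of those types only the shallow neutrophil-like cells (82.2 CPM) exceeded them, and keratinocyte-like cells came next at 56.4. Per FGF8 cell they had 1.53 and 1.04 UMIs, against 0.227 in erythroid-like and 1.00 in keratinocyte-like cells, the extremes of those types. How far UMIs from other cells enter these ratios was not tested, so the ratios are given for the summed UMIs only. In the *Prg4* *Il1rl1* cluster 3 of 9 members were at least 2-fold higher in FGF8 (*Mmp3*, *Mmp9* and *Mmp10*), against 5.06% of genes, and 2 were at least 2-fold lower (*Mmp11* and *Mmp13*), against 8.93% of genes. *Mmp9* there had 294 UMIs in FGF8, 108 of them in 1 cell, and 15 in BSA. Its log2 ratio was -0.24 (-1.42 to 0.95) among female-called cells and at least 1.71 among male-called ones. In tenocyte-like cells 4 of 9 were at least 2-fold higher (*Mmp3*, *Mmp9*, *Mmp10* and *Mmp13*), against 4.78% of genes. Of these, *Mmp3* was inside the 25.1 to 82.2 CPM range and *Mmp9* and *Mmp10* were at 30 and 11 FGF8 UMIs. The 1 member at least 2-fold lower there, against 3.45% of genes, was *Mmp12*, with 1 UMI in FGF8 and 15 in BSA. *Mmp11* in the *Prg4* *Il1rl1* cluster was at 12.5 CPM in FGF8 and 30.2 in BSA (-1.27, -1.49 to -1.05). In tenocyte-like cells its log2 ratio was -0.47 (-0.93 to -0.02). It was 0.52 (0.37 to 0.67) in the *Chodl* *Sema3a* cluster and 0.53 (0.29 to 0.77) in the *Coch* *Nrg1* cluster. In the *Agtr2* *Lpl* cluster it was 0.16 (-0.23 to 0.55).

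*Mmp13* showed how much a few cells can weigh. It was at 89.5 CPM in FGF8 and 317 CPM in BSA in the *Prg4* *Il1rl1* cluster (log2 ratio -1.83, -1.90 to -1.75), but at 632 and 117 CPM in tenocyte-like cells (2.43, 2.33 to 2.53). Among female-called cells these ratios were -0.99 and 3.21, and among male-called ones -2.37 and 6.38. In the *Prg4* *Il1rl1* cluster of the BSA library, 9 osteoblast-marker cells among 271 held 78.5% of the *Mmp13* UMIs, and 1 of them held 818 UMIs. Without osteoblast-marker cells the log2 ratio of this cluster was -0.03, from 2618 UMIs in 1117 FGF8 cells and 583 in 262 BSA cells. Without the 10 richest cells of each library it was 2.19, but only 21 BSA cells of the cluster carried *Mmp13*, against 188 FGF8 cells, so this cut took away a far larger part of the BSA carriers. In tenocyte-like cells, osteoblast-marker cells held 90.6% of the *Mmp13* UMIs in FGF8 and 78.5% in BSA, and without them the log2 ratio was 1.31. Over all fibroblast-like cells the log2 ratio without osteoblast-marker cells was 1.09, against 0.39 with them.

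Within the osteoblast-marker cells themselves *Mmp13* was near equal in the libraries, and *Mmp3* was not. *Mmp13* had 6238 UMIs in 81 FGF8 cells and 2889 in 38 BSA cells, and its log2 ratio per UMI was 0.26 (0.20 to 0.33). A *Mmp13* UMI was found in 76.5% of these FGF8 cells and in 60.5% of the BSA cells. The richest cell held 1021 UMIs in FGF8, 16.4% of the total, and 818 in BSA, 28.3% of the total. The log2 ratio was 0.91 among female-called cells and -0.42 among male-called ones. *Mmp3* was at 258 CPM in FGF8 and 35.5 in BSA (2.86, 2.39 to 3.36), with 247 of its 523 FGF8 UMIs in 1 cell. With cells of at least 5 markers in place of 4 it was 0.61, and with at least 3 it was 3.47. *Mmp2* (331 and 486 CPM, -0.55) and *Mmp14* (423 and 676 CPM, -0.68) were lower in FGF8 here too. *Mmp3* was the 1 member of 7 at least 2-fold higher, against 7.25% of genes, and 0 members were at least 2-fold lower, against 4.98% of genes.

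Chondrocyte-like cells carried the highest *Mmp3* and *Mmp10* levels of the FGF8 library. *Mmp3* had 4258 UMIs in the FGF8 library, from 92 of its 143 cells, and 66 UMIs in the BSA library, from 3 of its 66 cells, or 1325 and 40.3 CPM, a log2 ratio of 5.04 (4.69 to 5.41). *Mmp10* had 577 UMIs in 26 FGF8 cells and 29 UMIs in 1 BSA cell, a log2 ratio of 3.34 (2.80 to 3.93). That BSA cell held all 29 *Mmp10* UMIs of the library, 63 of the 66 *Mmp3* UMIs and 641 of the 722 *Mmp13* UMIs of the BSA chondrocyte-like cells, with 8 of 10 chondrocyte markers and 3 of 9 osteoblast-lineage markers detected. With cells named one by one from markers the log2 ratio of *Mmp3* was 3.49.

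*Mmp13* in chondrocyte-like cells was at 267 CPM in FGF8 and 441 in BSA (log2 ratio -0.72, -0.87 to -0.58), yet it was detected in 32.2% of FGF8 cells (46 cells) and 7.58% of BSA cells (5 cells). Thinned to 2000 UMIs, the shares were 16.5% (10.8% to 23.8%) and 1.69% (0.0429% to 9.09%). In female-called cells, which leave out the rich BSA cell, *Mmp13* had 346 UMIs in 41 FGF8 cells and 3 in 40 BSA cells (log2 ratio 7.04), and in male-called cells 459 in 81 and 642 in 15 (-3.00). *Mmp3* was higher in FGF8 in both, with log2 ratios of 9.16 and 2.70. *Mmp10* had 350 UMIs in FGF8 and 0 in BSA in female-called cells, and 218 and 29 in male-called cells (0.40, -0.17 to 1.01).

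*Mmp12* was the member with the opposite order in chondrocyte-like cells, at 16 UMIs in FGF8 and 87 in BSA (log2 ratio -3.42, -4.29 to -2.64). The BSA UMIs came from 3 cells, and 1 of those held 69 of them and had all 10 chondrocyte markers and no macrophage marker. *Mmp2* was at 85.3 and 164 CPM (-0.95, -1.20 to -0.70), and *Mmp14*, at 88.7 and 88.0, did not differ beyond counting error (0.01, -0.28 to 0.31), though the ratio was 0.95 among female-called cells and -1.12 among male-called ones. In all, 3 of 8 members were at least 2-fold higher in FGF8 (*Mmp3*, *Mmp9* and *Mmp10*), against 10.6% of genes, and 1 was at least 2-fold lower, against 6.06% of genes. *Mmp9* among them rested on 17 UMIs in FGF8 and 1 in BSA.

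*Col10a1*, the collagen of hypertrophic chondrocytes, separated the chondrocyte-like cells further. In the 19 FGF8 and 11 BSA cells with at least 10 *Col10a1* UMIs, *Mmp13* had 153 UMIs in FGF8 and 0 in BSA, *Mmp3* had 183 and 0, and *Mmp10* had 42 and 0. In the other 124 FGF8 and 55 BSA cells, *Mmp3* was at 1558 and 56.9 CPM, so the higher FGF8 level was present on both sides of this cut, which was set after the data were seen. *Mmp10* there was at 205 and 25.0 CPM. *Mmp13* had the opposite order on that side, with 705 UMIs in FGF8 and 722 in BSA (log2 ratio -1.21, -1.36 to -1.06), 641 of the latter in the 1 rich cell.

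**Figure D4:**
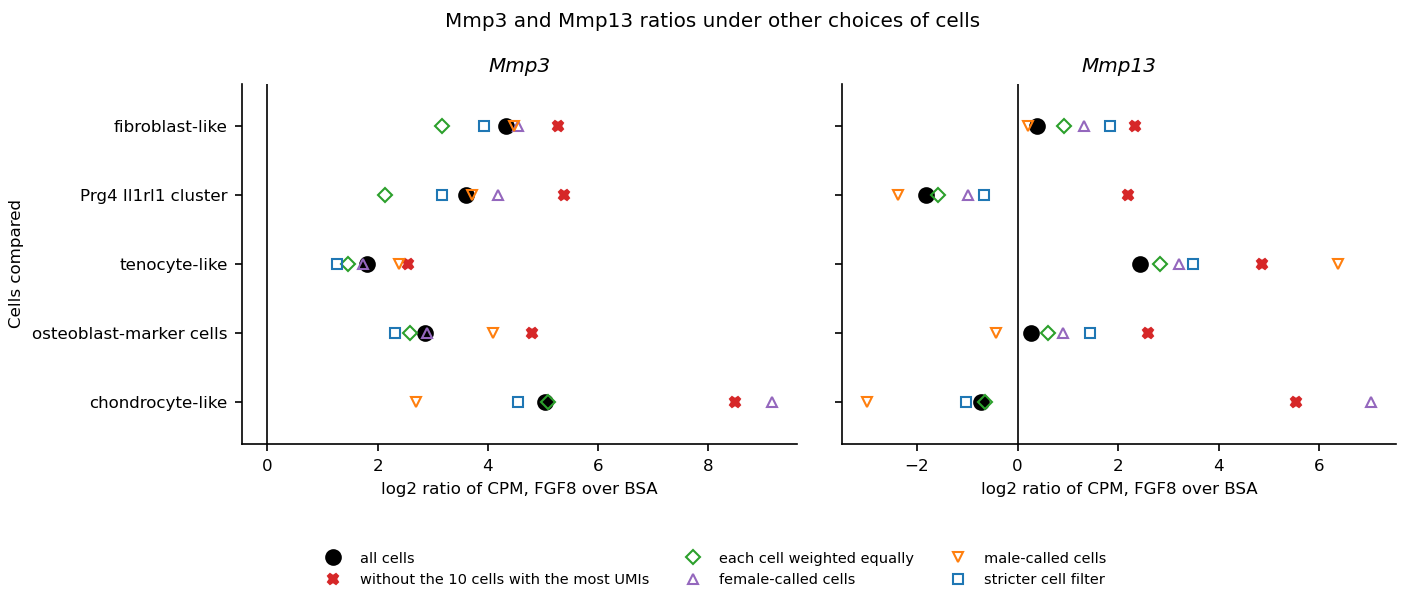
Log2 ratio of *Mmp3* (left) and *Mmp13* (right), FGF8 over BSA, in 5 sets of cells, for all cells (black) and for other choices of the cells counted or weighted. All *Mmp3* points lie above 0, while *Mmp13* points lie on both sides of 0 in the *Prg4* *Il1rl1* cluster, the osteoblast-marker cells and the chondrocyte-like cells. The points without the 10 richest cells are lower bounds in chondrocyte-like cells, where 3 BSA cells carried *Mmp3* and 5 carried *Mmp13*, and in the *Prg4* *Il1rl1* cluster this is the 1 choice shown that puts *Mmp13* above 0.

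In macrophage-like cells *Mmp19*, *Mmp14* and *Mmp9* differed by less than 2-fold between the libraries over all cells, with values that moved with called sex. *Mmp3* and *Mmp13* differed by more, with thinned shares of FGF8 cells close to those of erythroid-like cells. *Mmp14*, with 940 UMIs in FGF8 and 477 in BSA, had a log2 ratio of 0.10 (-0.06 to 0.26), and *Mmp19* at 76.6 and 54.7 (0.49, 0.28 to 0.70). Among female-called cells the log2 ratio of *Mmp14* was 0.01 and that of *Mmp19* 0.96, and among male-called ones they were 0.94 and -0.33. *Mmp3* and *Mmp13* were the 2 of 9 members at least 2-fold higher in FGF8, against 8.85% of genes, and 0 were at least 2-fold lower, against 3.79%. *Mmp3* had 330 UMIs in FGF8 and 2 in BSA, which is 0.450 UMIs per FGF8 cell, against 0.227 per FGF8 erythroid-like cell. Thinned to 2000 UMIs it was found in 6.40% of FGF8 macrophage-like cells and 6.68% of FGF8 erythroid-like cells. *Mmp13* had 185 and 10 UMIs, with 79 in 1 FGF8 cell and 84 in the 41 FGF8 cells with at least 3 of 8 osteoclast markers. Over the cluster it was at 0.252 UMIs per FGF8 cell, against 0.0767 in erythroid-like cells. Thinned likewise, it was found in 1.74% (0.904% to 3.03%) of FGF8 macrophage-like and 1.04% (0.340% to 2.42%) of FGF8 erythroid-like cells.

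The *Mmp9* UMIs of the macrophage-like cluster came mostly from 1 cell in each library, among 40 FGF8 and 9 BSA cells that carried it. The richest FGF8 cell held 500 of 621 UMIs (80.5%) and the richest BSA cell 393 of 450 (87.3%). Each of them showed 7 of 8 osteoclast markers, with 826 and 962 UMIs of *Acp5*, which encodes the tartrate-resistant acid phosphatase of osteoclasts, and 1 and 2 of 8 macrophage markers. The 41 FGF8 and 22 BSA cells of this cluster with at least 3 osteoclast markers held 90.7% and 96.9% of its *Mmp9* UMIs. The cluster's *Mmp9* log2 ratio of -0.42 (-0.59 to -0.24) is thus a comparison of very few cells. It was -2.38 among female-called cells, which hold the rich BSA cell, and 0.97 among male-called ones, which hold the rich FGF8 cell. *Mmp12* was found in 7 FGF8 and 6 BSA cells of the cluster, with 56 and 48 UMIs.

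Neutrophil-like cells expressed *Mmp9* evenly. It was found in 48.1% of 534 FGF8 cells and 48.7% of 158 BSA cells, at 0.912 and 0.937 UMIs per cell, and its log2 ratio was 0.34 (0.07 to 0.62). *Mmp8* was found in 7.12% and 12.7% of them (log2 ratio -0.43, -1.10 to 0.27). The median neutrophil-like cell had 2403.5 UMIs in FGF8 and 3214 in BSA, so genes at these levels were missed in many cells.

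Of the inhibitors, *Timp1* was higher in the FGF8 library alongside *Mmp3*. In fibroblast-like cells it was at 2143 CPM in FGF8 and 476 in BSA (log2 ratio 2.17, 2.15 to 2.20), and in chondrocyte-like cells at 3886 and 1428 (1.44, 1.38 to 1.51). *Timp2*, which also takes part in proMMP2 activation, was at 593 and 810.2 CPM in fibroblast-like cells (-0.45), *Timp3* at 179.7 and 168 (0.10), and *Reck*, a membrane-anchored inhibitor, at 39.3 and 67.9 (-0.79). *Timp4* had 3 UMIs in FGF8 and 8 in BSA. Of these 5 inhibitors 1 was at least 2-fold higher and 1, *Timp4*, at least 2-fold lower, the latter on those few UMIs, beside 6.51% and 5.12% of all genes compared in these cells. Among 9 activators, regulators and receptors, *Plau*, the urokinase that makes plasmin (22.3 and 7.52 CPM, 1.57), and its receptor *Plaur* (117 and 53.3 CPM, 1.14) were the 2 at least 2-fold higher in fibroblast-like cells and 0 were at least 2-fold lower, beside the same shares of all genes. The median of the 9 was 0.11. *Furin*, which activates MMP14 and MMP11, was at 46.7 and 43.3 CPM (0.11), and *Bsg*, an inducer of MMP expression on neighbouring cells, at 509 and 526 (-0.05).

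Among 13 other Mmp genes listed, 9 reached 10 UMIs in these fibroblast-like cells, of which 2 were at least 2-fold higher in FGF8 and 2 at least 2-fold lower (6.51% and 5.12% of all genes), with a median log2 ratio of -0.50. *Mmp27*, on the same chromosome 9 stretch as *Mmp3*, was at 2.44 CPM in FGF8 and 6.67 in BSA (-1.45, -1.75 to -1.16). *Mmp16*, a membrane-type enzyme, was at 90.0 and 181 CPM (-1.01, -1.06 to -0.96). It was among the 10 leading genes of the *Coch* *Nrg1* cluster, which made up 229 of 3316 FGF8 and 175 of 1713 BSA fibroblast-like cells. How far cluster size enters the *Mmp16* ratio was not tested. *Mmp1b*, whose annotation overlaps that of *Mmp12* on the same strand, had 42 and 5 UMIs (2.10, 0.76 to 3.79), and *Mmp24* had 9 and 2 UMIs. Neighbours on chromosome 9 thus did not share a direction.

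The AP-1 genes were set beside the members because of the promoter match. In fibroblast-like cells *Fosl1* was at 45.7 CPM in FGF8 and 16.6 in BSA (log2 ratio 1.46, 1.34 to 1.59), the 1 of 7 AP-1 genes at least 2-fold higher, with 0 at least 2-fold lower (6.51% and 5.12% of all genes) and a median of 0.41. *Jun* (0.43), *Junb* (0.53) and *Fosb* (0.41) were higher by less, *Fos* was at 0.07 and *Jund* at -0.42. In chondrocyte-like cells, where *Mmp3* and *Mmp10* also had their highest levels, the median of the 7 was -0.62, and 1, *Fos*, was at least 2-fold lower in FGF8, against 6.06% of genes. *Fosl2*, at -0.25 (-0.68 to 0.18), did not differ beyond counting error. *Fos* there was at 458 and 945 CPM (-1.05, -1.15 to -0.94) and *Fosl1* at 40.5 and 62.3 (-0.62, -1.01 to -0.24).

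Likeness of pattern was measured as Pearson's r of log2(CPM + 1) over 36 sums, 1 for each cluster or type and library, against 16249 other genes with at least 100 UMIs. The sums share libraries, and sums of the same library share their depth, so these values describe the pattern only. *Mmp2* was most like the fibrillar collagen genes *Col5a2* (0.95), *Col1a2* (0.94) and *Col3a1* (0.93). *Mmp3* was most like *Prg4* (0.84), *Spp1* (0.77), which encodes osteopontin, and *Hmga2* (0.76). *Mmp13* was most like *Six4* (0.90), *Spp1* (0.90) and *Enpp1* (0.85), which encodes an enzyme that makes the mineralisation inhibitor pyrophosphate.
*Mmp10* was most like *Odaph* (0.88), *Il1rapl2* (0.84) and the cytokine gene *Il11* (0.83). *Mmp9* was most like the neutrophil genes *Fpr2* (0.90), *Hp* (0.88) and *Fpr1* (0.87), and *Mmp8* like *Siglece* (0.98), *Gm53692* (0.95) and *Cebpe* (0.95). *Mmp11* was most like *Nfatc4* (0.91), *Emx2* (0.90) and *Adamts2* (0.90), *Mmp19* like *Abca9* (0.85), *Hacd4* (0.84) and *Dtx4* (0.84), and *Mmp12* like *Ninj2* (0.78), *Tnfsf4* (0.71) and *Prss50* (0.70). *Mmp14* was most like *Gm56768* (0.97), a non-coding gene annotated within *Mmp14* on the same strand, so reads of the pair may not be separable, and next like *Fstl1* (0.94) and *Scarf2* (0.93).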

How the data were processed

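Single cells of 2 libraries, 1 per condition, had been sequenced with the 10x Genomics 3′ kit (version 3.1 chemistry). The deposited files hold raw UMI counts per gene and barcode, which the authors made with Cell Ranger 9.0.0 on the GRCm39 reference of its maker, in matrices of 7249 (FGF8) and 3703 (BSA) barcodes. From these counts, barcodes with more than 200 and fewer than 7500 genes and under 15% mitochondrial UMIs were kept, after the study's methods. No doublet caller was run, and doublets were removed only as far as the gene ceiling does. Cells were normalised with SCTransform, integrated by CCA and clustered on 30 principal components in Seurat 5.3.0 (R 4.3.3) at resolutions 0.05 (fibroblast-like cluster) and 0.5 (all others). The 14 Mmp and Timp genes among the 3000 variable features were left out. A cluster was named from a marker list where at least 3 of its markers were detected in at least 10% of cells, at least 1 was among the 10 leading genes by fold and their mean log2 fold was above 1; others carry their 2 leading genes. The rules for naming, for osteoblast-marker and osteoclast-marker cells and for the *Col10a1* cut were set after the data were seen, and names rebuilt here may differ from the study's.

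UMIs were summed per library and cell set and divided by all UMIs of the set (CPM). At 3′ UMI counts each transcript gives 1 tag, so levels were not divided by length. Ratios are FGF8 over BSA, with exact conditional 95% intervals; sums have exact Poisson intervals and shares exact (Clopper-Pearson) binomial ones. Against 0 UMIs the ratio is a bound at a floor of 3 UMIs in the library. A gene was compared where the libraries together held at least 10 of its UMIs, and 2-fold marks size only. With 1 library per condition no test was made. Intervals were checked on counts simulated from the Poisson model they assume. That check does not cover UMIs gathered in few cells, for which the intervals are too narrow.

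The members and gene lists were chosen with earlier results of these data known. All 10 members are named; beside them, for each with at least 100 UMIs, the 3 genes most like it, and listed inhibitors, activators, AP-1 genes and other Mmp genes. Positions and promoters were read from GRCm39 with GENCODE vM39. Alternatives tried are given in the closing section.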

Additional observations from a re-analysis of the deposited data

Results flagged for a closer look

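The log2 ratios (FGF8 over BSA) of 4 pairs went in opposite directions in different cells. None of these differences was tested, since each condition had 1 library. *Mmp13* in chondrocyte-like cells was 7.04 among female-called cells and -3.00 among male-called ones; 1 male-called BSA cell held 641 of the 642 UMIs behind the second value. *Mmp13* was also 3.33 in macrophage-like cells and -1.83 in the *Prg4* *Il1rl1* cluster. *Mmp2* was 1.24 in neutrophil-like and -1.45 in blood endothelial-like cells. *Mmp14* was 1.31 in the *Ptprcap* *Klrb1b* cluster and -1.04 in erythroid-like cells. Several of these values rest on shares of cells near background. *Mmp2* was found in 10.1% of FGF8 neutrophil-like cells, against 10.8% of erythroid-like and 10.6% of *Ptprcap* *Klrb1b* cells, and *Mmp14* in 12.4% of FGF8 erythroid-like and 18.5% of *Ptprcap* *Klrb1b* cells. *Mmp13* of FGF8 macrophage-like cells had a thinned share of 1.74%, against 1.04% in erythroid-like cells, and 79 of its 185 UMIs in 1 cell.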

How the results depend on the processing

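In fibroblast-like cells, 3 members were at least 2-fold higher in FGF8 and 0 at least 2-fold lower. The first count was 5 with cell types called per cell from markers and lay between 3 and 4 under every other alternative that gave a value. The second was 1 under the stricter cell filter (500 to 6000 genes, under 10% mitochondrial) and 1 in female-called cells, and 0 under the others. The log2 ratios ranged over the alternatives from 2.94 to 5.27 for *Mmp3*, from 1.95 to 3.71 for *Mmp9*, from 2.36 to 5.95 for the lower bound of *Mmp10* and from 0.21 to 3.89 for *Mmp13*. In the *Prg4* *Il1rl1* cluster, *Mmp9* was -0.24 in female-called cells against 2.12 in all cells, and *Mmp13* was 2.19 without the 10 cells richest in it against -1.83. Of the BSA cells of this cluster 21 carried *Mmp13*, against 188 FGF8 cells, so leaving out 10 of each weighs more on BSA; the cause of the *Mmp9* value was not tested. Of 421 alternative values, 382 had the direction of the value reported and 39 the opposite one. That tally is of direction only, and values of the same direction could differ widely in size, as the ranges above show. Clustering at resolutions 0.1 and 0.2 gave no cluster named fibroblast-like, so no value. Leaving cells unfiltered was tried over all cells of a library only. No paired analysis was possible because each condition had 1 library. *Mmp8* and *Mmp12* were compared on 135 and 265 UMIs over all kept cells.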
